A study of Homo sapiens with 16 samples.

Results

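The voltage-gated and potassium channel genes are the protein-coding genes of the deposited tables whose symbol starts with KCN or CACN, or has the form SCN, a number and A or B. The rule uses names and no measured value. It found 109 of the 26410 genes, of which 76 encode potassium, 21 calcium and 12 sodium channel subunits. A further 27 annotated genes that fit the rule, among them CACNA1A, KCNJ6 and SCN4A, were not analysed here.

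These channels are membrane proteins that open or close with the voltage across the membrane, with calcium or sodium inside the cell, or with other signals. Sodium and calcium channels carry the currents that excite a nerve cell and let calcium in, and potassium channels carry the current that returns the membrane to rest. The pore is built by a large subunit, and smaller auxiliary subunits set how much channel reaches the membrane and how fast it opens and closes. The SH-SY5Y line, grown from a human neuroblastoma, comes from the sympathetic nerve cell lineage, in which such channels set excitability.

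RNA was measured in 16 libraries of SH-SY5Y cells in 4 groups of 4 libraries. The groups are Scr untreated, TRPM2 KO untreated, Scr with doxorubicin and TRPM2 KO with doxorubicin. Doxorubicin, an anthracycline used in chemotherapy that damages DNA, was given for 24 h at 0.3 µM by the sample labels, a dose that the study's own text also has for these cells, although the design text of the series gives 3 µM. TRPM2 is a calcium-permeable channel outside the rule. The clones labelled TRPM2 KO, named KO11 and KO28, had received a pCas9-guide vector with a guide to TRPM2. The Scr clones, Scr13 and Scr16, had received the same vector with a scrambled guide. All 4 clones carried the same donor vector with GFP and puromycin markers, were selected with puromycin, and grew from single cells. Each clone gave 2 replicate libraries per treatment. A difference between genotypes thus rests on 2 clones against 2 and cannot be told apart from differences between clones, and the study's methods call the replicates of a clone biological replicates, while the labels do not say whether they were grown separately. The p-values measure the spread between these libraries.

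Levels are normalized CPM, that is, the authors' CPM, reads on a gene relative to all reads on genes in the library, after their normalization. Between 10481177 and 25086085 reads per library fell on genes. A count of 0 allows a level of up to 3 reads, here called the floor, which lay between 0.118 and 0.285 normalized CPM depending on the library and takes in counting error alone. Replicate libraries of 1 clone and treatment were not copies of each other, since all 8 pairs exceeded sampling noise (chi-square per gene between 7.79 and 16.9).

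The reads of TRPM2 went against the genotype label in the untreated libraries. TRPM2 had 1.93 and 2.23 in KO11 and 1.41 and 2.19 in KO28 (normalized CPM). In the untreated Scr libraries it had 0.118 and 0.115 in Scr13 and 0 and 0 in Scr16 (normalized CPM), at or under the floor. After doxorubicin it had 1.22 and 1.83 in KO11 and 1.37 and 0.658 in KO28 against 0.0594 and 0.0631 in Scr13 and 1.33 and 0.390 in Scr16, and these groups overlapped. By the study's methods, the edit took out the stretch that encodes the start of the protein and put the rest out of frame, and RT-PCR and Western blots were used to authenticate the clones. Reads summed over the gene do not show whether that stretch was covered and so do not check the edit. All directions below are drawn between the labels TRPM2 KO and Scr.

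The cell line's own markers were checked beside the channels. Of 13 adrenergic neuroblastoma markers, all were in the tables. DBH, the enzyme that makes noradrenaline, was the most abundant at a mean of 1585 normalized CPM, while TH, the first enzyme of that pathway, stayed between 0 and 1.13 normalized CPM. The summed level of this list was 6844 ± 489 in untreated Scr and 7326 ± 510.1 in untreated libraries labelled TRPM2 KO (SD, n = 4). After doxorubicin it was 7411 ± 367 in Scr and 7172 ± 355 in the libraries labelled TRPM2 KO (SD, n = 4), the opposite order, and the groups overlapped in both treatments. Of 14 mesenchymal or fibroblast markers, 13 were in the tables and VIM was the most abundant, at a mean of 275 normalized CPM. Their summed level was 739 ± 214 against 1126 ± 125 without treatment, and 729 ± 143 against 1210 ± 165 after doxorubicin (Scr first, SD, n = 4). Scr13 replicate 1 without treatment stood within the range of the untreated libraries labelled TRPM2 KO, with a sum of 1038. Without it 4 channel genes were called in the untreated genotype comparison and 10 in the Scr response, with no share of all genes given here. In the genotype comparison, 7 of 12 tested members of this list were higher and 1 lower without treatment, where 2.3% and 2.54% of all tested genes were, and 8 of 11 were higher and 1 lower after doxorubicin, where 4.52% and 4.17% were. With doxorubicin, 1 of 9 rose in Scr, and 2 of 12 rose and 1 fell in the clones labelled TRPM2 KO, where 12.3% and 19.6% of all tested genes were called. Of 12 tested adrenergic markers, 3 were higher and 1 lower in the genotype comparison in each treatment, 2 rose and 1 fell with doxorubicin in Scr, and 3 rose and 3 fell in the clones labelled TRPM2 KO, to be read against the same shares. No gene of these lists was at 0 in every library. Of 6 Schwann cell markers, 4 were in the tables, the most abundant had a mean of 1.77 normalized CPM, SOX10 was not analysed here, and S100B stayed under 1 in every library. Of the 2 Schwann cell markers tested, limma called 0 in each comparison, with 1 at an unadjusted p under 0.05 in the untreated genotype comparison. The mesenchymal markers moved with the genotype label, and their part in the channel differences was not tested.

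The treatment was checked on CDKN1A and MDM2, target genes of the p53 response to DNA damage. CDKN1A rose in the Scr clones (log2 fold change 2.58, SE 0.12, adjusted p = 1.49e-10) and in the clones labelled TRPM2 KO (log2 fold change 2.43, SE 0.08, adjusted p = 4.14e-18), and so did MDM2 (log2 fold change 0.89, SE 0.08, adjusted p = 6.54e-07 and log2 fold change 1.33, SE 0.07, adjusted p = 1.71e-13). CDKN1A was also higher in the libraries labelled TRPM2 KO without treatment, with 136 ± 16.5 against 57 ± 15.2 normalized CPM (SD, n = 4, limma adjusted p = 3.36e-06). After doxorubicin CDKN1A lay between 677 and 788 normalized CPM in the libraries labelled TRPM2 KO and between 304 and 365 in Scr.

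Most channel genes were low in these cells and a few were abundant. Of the 109 genes, 67 had a mean of at least 1 normalized CPM, 41 of at least 10 and 6 of at least 100. Reads were found in all 16 libraries for 66 genes, and 22 genes were at 0 in 8 or more libraries. Together the 109 genes took between 0.297% and 0.376% of the reads of a library. Levels between genes were compared per length, as normalized CPM per kb of exon with all annotated exons joined, since long genes collect more reads. The plot of levels by role shows that in each role 1 or a few genes stood above the rest.

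**Figure D1:**
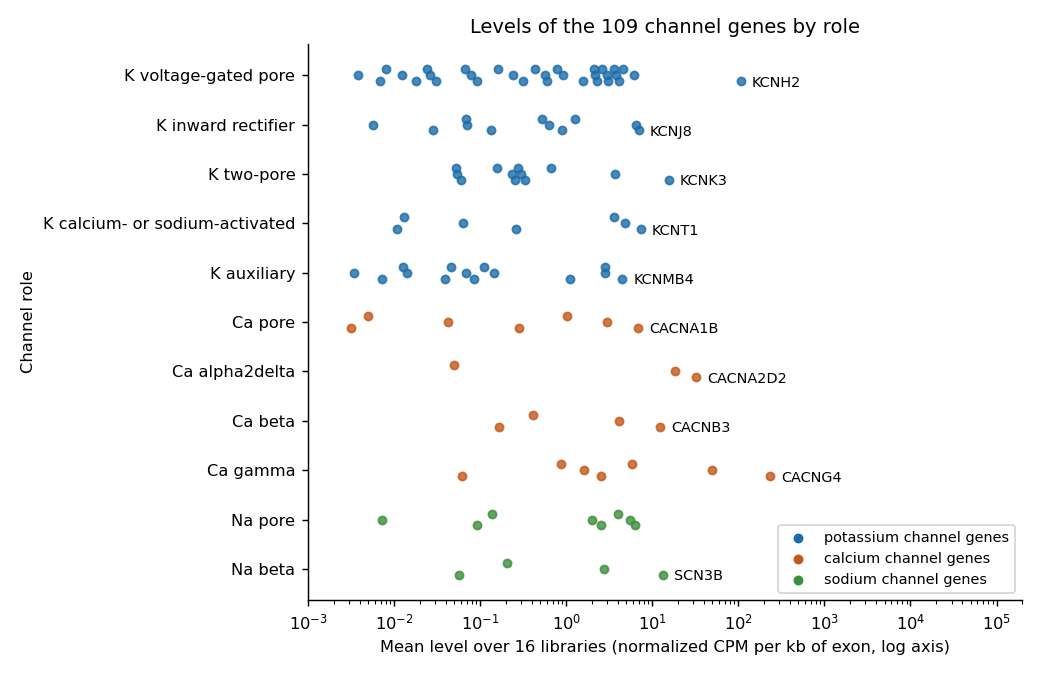
Mean level over the 16 libraries of each of the 109 channel genes, in normalized CPM per kb of exon on a log axis, by role (1 point per gene, with the highest gene of each role but the sodium pores named). CACNG4 at 235 and KCNH2 at 107 lie to the right of all other genes.

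Among the voltage-gated potassium pores, KCNH2, which encodes the hERG channel of the rapid delayed rectifier current, was far above its family. It had 107 ± 17.3 normalized CPM per kb (SD over 16 libraries), and the lowest library, at 85.5, was above every library of any other potassium channel gene. Of the 2-pore channels, which carry background potassium current, KCNK3 (TASK-1) led with 15.6 ± 2.59 per kb, above KCNK1 with 3.64 ± 0.626. KCNT1, the sodium-activated channel Slack, had the highest mean over all libraries among the channels opened by calcium or sodium, 7.38 ± 3.83 per kb, while in untreated Scr KCNN1, a small-conductance calcium-activated channel, was at 3.94 ± 0.469 (SD, n = 4) and KCNT1 at 3.76 ± 0.828 (SD, n = 4) per kb, and these overlapped. Among inward rectifiers, KCNJ8, a pore of ATP-sensitive channels, and KCNJ9, a subunit of G protein-gated channels, had 6.99 ± 1.54 and 6.55 ± 0.983 per kb, and they overlapped in every group. KCNMB4, a beta subunit of the large-conductance calcium-activated channel, led the potassium auxiliaries with 4.50 ± 0.501 per kb.

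Among calcium channel genes, 5 auxiliaries were higher per length than the highest pore, and the other auxiliaries were lower. CACNG4, a gamma subunit that also serves AMPA-type glutamate receptors, had 235 ± 33.9 per kb, followed by CACNG7, of the same family, with 49.3 ± 10.0. The alpha2delta subunits, which bring the channel to the surface, were CACNA2D2 with 32.2 ± 7.62 and CACNA2D1 with 18.1 ± 3.89 per kb. CACNB3, an intracellular beta subunit, had 12.4 ± 1.43 per kb. The highest pore was CACNA1B, the N-type channel of nerve endings, with 6.84 ± 1.60 per kb, and CACNA1G, a low-voltage-activated T-type pore, followed with 2.95 ± 1.48.

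Among sodium channel genes, the beta subunit SCN3B had 13.3 ± 2.27 per kb. Of the pores, SCN3A, a pore of developing neurons, had 5.54 ± 0.819, while SCN9A (Nav1.7, of sensory and sympathetic neurons) had 3.95 ± 1.31 per kb. In untreated Scr libraries, SCN9A was at 3.01 ± 0.410 (SD, n = 4) per kb, under SCN3A at 6.45 ± 0.728 (SD, n = 4), and no library of SCN9A reached any of SCN3A. After doxorubicin in the clones labelled TRPM2 KO, SCN9A had 5.64 ± 0.784 (SD, n = 4) and SCN3A 5.14 ± 0.654 (SD, n = 4) per kb, and these overlapped. SCN8A and SCN2A, pores of the axon, had lower means than SCN9A in every group, although SCN8A overlapped SCN9A in both Scr groups and SCN2A overlapped SCN9A in treated Scr.

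**Figure D2:**
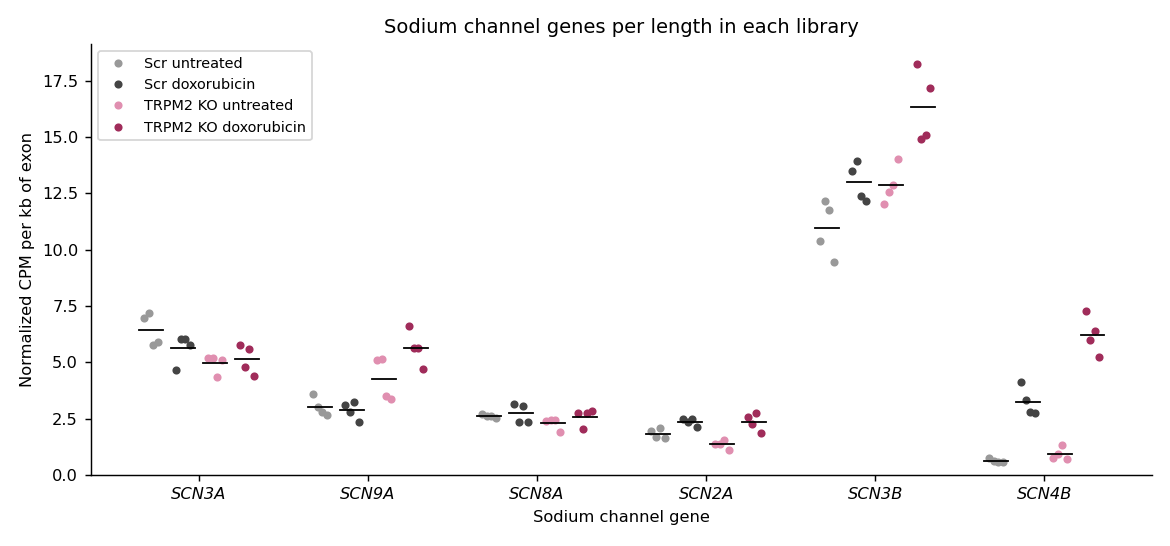
Level of 6 sodium channel genes in each of the 16 libraries, in normalized CPM per kb of exon (points are libraries, bars the mean of 4). SCN9A has a mean of 5.64 in the treated libraries labelled TRPM2 KO and 2.87 in treated Scr, and SCN4B is higher with doxorubicin in both genotypes.

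How the channel genes responded to doxorubicin was asked within each genotype. In the Scr clones, 11 of 64 tested channel genes rose and 0 fell, that is, 17.2% were called against 12.3% of all 14378 tested genes, of which 7.1% rose and 5.24% fell. Among the clones labelled TRPM2 KO, 16 of 64 rose and 4 fell, that is, 31.2% were called against 19.6% of all 14513 tested genes, of which 11.3% rose and 8.35% fell. Of falls in Scr, limma and edgeR called 0, with 1 at an unadjusted p under 0.05, and DESeq2 on the recovered reads called 1, KCNMA1. The 9 genes that rose in both were SCN4B, SCN2A, CACNA1G, CACNA1B, CACNA2D2, CACNG7, KCNT1, KCNH6 and KCNC4, that is, 9 of the 11 and 9 of the 16. All treated libraries lay above all untreated ones for 14 of the 64 genes in Scr, against 8.76% of all genes, and below them for 0, against 8.35%. For the clones labelled TRPM2 KO these counts were 16, against 11%, and 2, against 8.79%, with 17.1% and 19.8% of all genes not overlapping in either direction in the 2 genotypes. A gene was tested where 4 or more of the 8 libraries compared reached 1 normalized CPM, and a call is an adjusted p under 0.05 by limma, with Benjamini-Hochberg adjustment over every gene tested. By class, the calls in Scr were 5 of 41 potassium, 4 of 16 calcium and 2 of 7 sodium channel genes, and in the clones labelled TRPM2 KO 9 of 40, 7 of 15 and 4 of 9. Without clone Scr13, 4 channel genes were called in Scr, and without clone KO11, 7 in the other clone labelled TRPM2 KO. The shares of all genes above belong to the full comparisons, and those of these smaller fits are not given here. The median log2 fold change of the tested channel genes was 0.14 in the Scr clones, against -0.01 for all genes, and 0.26 in the clones labelled TRPM2 KO, against 0.02. Of the 109 genes, 39 passed this filter in none of the 4 comparisons and 61 in all of them. In RNA from whole cultures, fewer cells of a type and less RNA per cell cannot be told apart.

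SCN4B, a beta subunit that is linked to resurgent sodium current, had the largest rise on the log2(normalized CPM + 1) scale in both genotypes. In the Scr clones it went from 4.09 and 3.51 in Scr13 and 3.13 and 3.29 in Scr16 to 23.2 and 18.7 in Scr13 and 15.8 and 15.6 in Scr16 (normalized CPM). Those labelled TRPM2 KO went from 4.13 and 5.18 in KO11 and 7.38 and 3.94 in KO28 to 41.1 and 33.8 in KO11 and 36 and 29.7 in KO28. Every treated library was above every untreated one in both genotypes. By clone mean, the rise was 5.50-fold in Scr13, 4.88-fold in Scr16, 8.04-fold in KO11 and 5.81-fold in KO28. The test gave log2 fold change 2.09, SE 0.19, adjusted p = 5.26e-07 in the Scr clones and log2 fold change 2.58, SE 0.18, adjusted p = 3.35e-11 in the clones labelled TRPM2 KO. SCN4B (ENSG00000177098) lies on chromosome 11 of GRCh38 from 118133377 to 118152888, on the minus strand.

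KCNT1 also rose in both genotypes. It lies on chromosome 9 from 135702185 to 135795508 on the plus strand (ENSG00000107147). In the Scr clones its level was 44.4 and 60.0 in Scr13 and 42 and 36.5 in Scr16 without treatment and 134 and 118 in Scr13 and 103 and 68.5 in Scr16 (normalized CPM) with doxorubicin. For the clones labelled TRPM2 KO it was 51.7 and 49 in KO11 and 46.3 and 75.6 in KO28 without treatment and 167 and 139 in KO11 and 150.5 and 152 in KO28 with doxorubicin. All treated libraries of a genotype lay above its untreated ones. For KCNT1 limma gave log2 fold change 1.17, SE 0.12, adjusted p = 2.44e-06 in Scr and log2 fold change 1.46, SE 0.11, adjusted p = 1.15e-10 in the clones labelled TRPM2 KO.

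**Figure D3:**
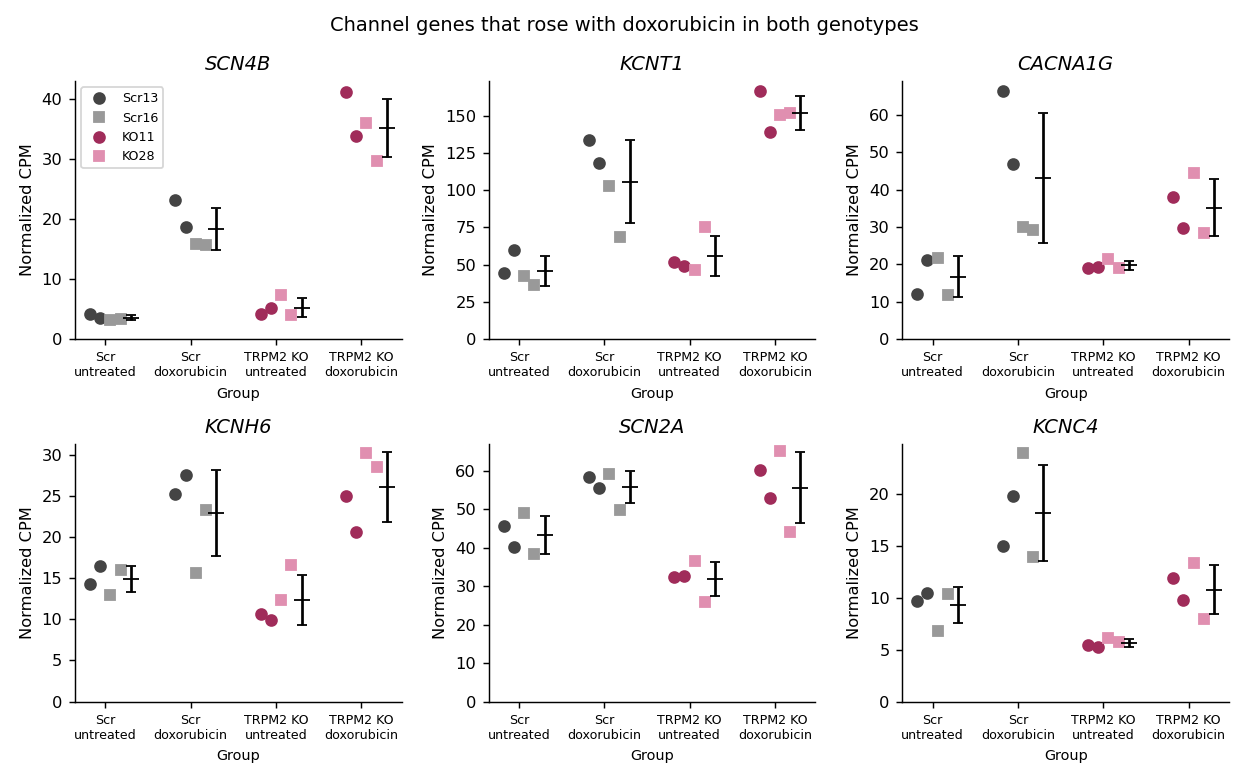
Level of 6 channel genes that rose with doxorubicin in both genotypes, in normalized CPM on axes from 0 (points are libraries, marked by clone, and bars the mean ± SD of 4). SCN4B rises from between 3.13 and 7.38 in the untreated libraries to between 15.6 and 41.1 with doxorubicin.

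The calcium channel pores that rose in both genotypes were CACNA1G and CACNA1B. CACNA1G went from 12 and 21.1 in Scr13 and 21.6 and 11.8 in Scr16 to 66.4 and 46.9 in Scr13 and 30.0 and 29.2 in Scr16 (normalized CPM). In the clones labelled TRPM2 KO it went from 18.9 and 19.4 in KO11 and 21.5 and 19 in KO28 to 38 and 29.7 in KO11 and 44.6 and 28.5 in KO28. The groups did not overlap in either genotype, and Scr13 had the highest treated libraries. The test gave log2 fold change 1.30, SE 0.21, adjusted p = 0.000387 in Scr and log2 fold change 0.79, SE 0.14, adjusted p = 0.000141 in the clones labelled TRPM2 KO, and without clone Scr13 the Scr call was lost (limma adjusted p = 0.124). CACNA1B rose by 0.53 on the log2 scale in Scr and by 0.53 in the clones labelled TRPM2 KO, and in the latter KO28 replicate 2 without treatment, at 65.3 normalized CPM, was above KO11 replicate 2 with it, at 63.4. Of the auxiliaries, CACNA2D2 rose by 0.55 and 0.66, and CACNG7 by 0.59 and 0.41, in the same order of genotypes.

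Potassium pores that rose in both genotypes were KCNH6, a relative of KCNH2, and KCNC4, a fast Kv3 pore. KCNH6 went from 14.2 and 16.4 in Scr13 and 13 and 16 in Scr16 to 25.2 and 27.6 in Scr13 and 15.6 and 23.2 in Scr16 (normalized CPM). With the label TRPM2 KO it went from 10.6 and 9.88 in KO11 and 12.3 and 16.6 in KO28 to 25 and 20.6 in KO11 and 30.2 and 28.5 in KO28. Scr16 replicate 1 with doxorubicin lay within the untreated Scr range, while the groups of the clones labelled TRPM2 KO did not overlap. For KCNH6 limma gave log2 fold change 0.56, SE 0.16, adjusted p = 0.0257 in Scr and log2 fold change 1.03, SE 0.15, adjusted p = 9.10e-06 in the clones labelled TRPM2 KO. The Scr call was lost without any 1 of 6 libraries, namely all but Scr16 replicate 2 without treatment and Scr16 replicate 1 with doxorubicin, with adjusted p up to 0.0933. KCNC4 went from 9.72 and 10.5 in Scr13 and 6.81 and 10.3 in Scr16 to 15 and 19.8 in Scr13 and 24 and 14 in Scr16 (normalized CPM), which did not overlap (log2 fold change 0.88, SE 0.20, adjusted p = 0.00574). The clones labelled TRPM2 KO went from 5.45 and 5.30 in KO11 and 6.17 and 5.76 in KO28 to 12 and 9.76 in KO11 and 13.4 and 8.01 in KO28, also without overlap (log2 fold change 0.80, SE 0.20, adjusted p = 0.00511). KCNN1 was called in the Scr clones and not in the others, with log2 fold changes of 0.61 against 0.40. KCNN1 went from 16.5 and 13.9 in Scr13 and 14.4 and 17.9 in Scr16 to 26.2 and 19 in Scr13 and 31.2 and 22.8 in Scr16 (normalized CPM), with no overlap. Its call was lost without Scr13 replicate 2 of the untreated libraries or Scr13 replicate 1 of the treated ones (adjusted p up to 0.0662).

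SCN2A was the sodium channel pore called in both genotypes. It went from 45.7 and 40.3 in Scr13 and 49 and 38.3 in Scr16 to 58.5 and 55.6 in Scr13 and 59.2 and 49.9 in Scr16 (normalized CPM). For the clones labelled TRPM2 KO it went from 32.5 and 32.7 in KO11 and 36.6 and 26 in KO28 to 60.3 and 53.1 in KO11 and 65.1 and 44.2 in KO28. The treated libraries lay above the untreated ones in each genotype. For SCN2A limma gave log2 fold change 0.36, SE 0.10, adjusted p = 0.0274 in Scr, a call lost without either treated Scr13 library, Scr16 replicate 1 with doxorubicin, or replicate 2 of either clone without treatment (adjusted p up to 0.110). With the label TRPM2 KO it gave log2 fold change 0.78, SE 0.12, adjusted p = 3.50e-05, which was kept without any single library or clone.

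A further 7 rises passed the threshold in the clones labelled TRPM2 KO and not in the Scr clones. KCNK6, a 2-pore channel also called TWIK-2, had 0.386 and 0.301 in KO11 and 1.41 and 1.39 in KO28 (normalized CPM) without treatment and 3.01 and 3.46 in KO11 and 5.56 and 2.51 in KO28 with doxorubicin. No treated library overlapped the untreated ones, and the untreated libraries of KO11 were close to the floor (log2 fold change 1.33, SE 0.28, adjusted p = 0.00109). In the Scr clones it did not pass the filter on low values. KCND1, an A-type pore, rose by 0.74 on the log2 scale, with a call that was lost without KO11 replicate 1 with doxorubicin or KO28 replicate 1 without (adjusted p up to 0.122). The abundant KCNH2 rose from 593 ± 69.9 to 748 ± 34.2 normalized CPM (SD, n = 4, log2 fold change 0.34, SE 0.08, adjusted p = 0.00196), against a log2 fold change of 0.17 in the Scr clones. By clone mean, its rise was 1.36-fold in KO11 and 1.18-fold in KO28, against 1.18-fold in Scr13 and 1.07-fold in Scr16. SCN9A, SCN3B and KCNK3 had log2 fold changes of 0.41, 0.34 and 0.29, against -0.07, 0.25 and 0.24 in Scr. Without clone KO28 the SCN9A rise was 0.25 and was not called. Without clone KO11 the calls of KCNH2, SCN3B, KCND1 and KCNK3 were lost. The KCNK3 call was lost without either untreated KO11 library, KO11 replicate 1 with doxorubicin, KO28 replicate 1 without or KO28 replicate 2 with it (adjusted p up to 0.111). The seventh, KCNAB2, a beta subunit of Kv1 channels, falls outside the rule for named genes and was named after its values were seen, with a log2 fold change of 0.52 against 0.33 in Scr. The KCNAB2 call was also lost without clone KO11. Part of the exons of KCNAB2 lies opposite NPHP4, which was at a mean of 28.2 normalized CPM. The strand setting of the counting is not given in the sources used here.

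The 4 falls that limma called were in the clones labelled TRPM2 KO. CACNG4 fell from 727 and 799 in KO11 and 828 and 847 in KO28 to 662 and 603 in KO11 and 608 and 703 in KO28 (normalized CPM), with no overlap (log2 fold change -0.31, SE 0.07, adjusted p = 0.00281). CACNA1D, an L-type pore, had 6.78 and 7.83 in KO11 and 6.91 and 5.47 in KO28 without treatment and 3.84 and 2.77 in KO11 and 5.82 and 2.81 in KO28 with doxorubicin, where KO28 replicate 1 with doxorubicin, at 5.82, overlapped the untreated range (log2 fold change -0.72, SE 0.24, adjusted p = 0.0302). Part of its exons lies opposite CHDH, which was at a mean of 3.02 normalized CPM. KCNMA1, the large-conductance calcium-activated channel, fell from 12.7 ± 2.64 to 8.32 ± 1.78 (SD, n = 4) and CACNA2D1 from 155 ± 24.2 to 126 ± 4.03. By clone mean, treated KCNMA1 was 0.60 of its untreated level in KO11 and 0.70 in KO28, against 0.45 in Scr13 and 0.76 in Scr16. In the same order, CACNA2D1 had 0.74 and 0.91 against 0.76 and 0.99, and CACNG4 0.83 and 0.78 against 0.89 and 0.94. CACNA1D had 0.45 and 0.70 against 0.60 and 1.56. Single libraries decided the calls of CACNA1D, KCNMA1 and CACNA2D1. CACNA1D was no longer called without any 1 KO11 library, KO28 replicate 1 without treatment or KO28 replicate 2 with it (adjusted p up to 0.116). KCNMA1 was no longer called without either untreated KO11 library, KO11 replicate 2 with doxorubicin or replicate 2 of KO28 in either treatment (up to 0.134). CACNA2D1 was no longer called without either untreated KO11 library or KO11 replicate 2 with doxorubicin (up to 0.0753).

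**Figure D4:**
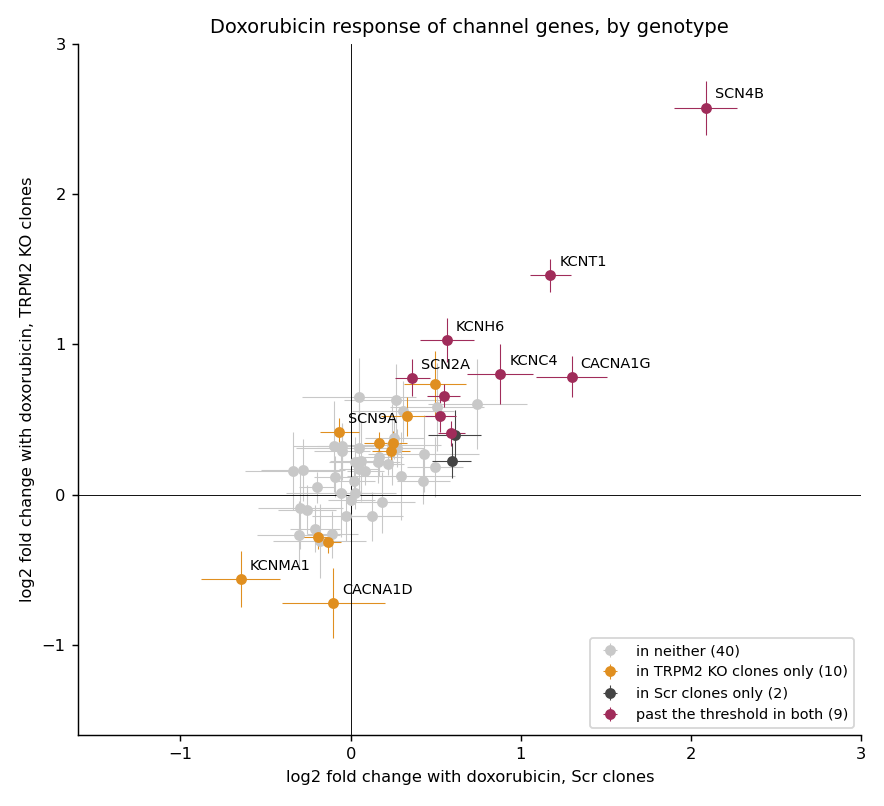
log2 fold change with doxorubicin in the Scr clones (horizontal axis) and in the clones labelled TRPM2 KO (vertical axis) for the 61 channel genes tested in both, with standard errors. The 9 genes past the threshold in both all lie in the upper right, led by SCN4B at 2.09 and 2.58.

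The promoters of 4 genes that rose with doxorubicin or differed with the genotype label are shown, KCNT1 and KCNH6 for the first and KCNH1 and SCN9A for the second. They come from RefSeq on GRCh38.p14 and are the bases before the RefSeq gene start, at most 250, that lie outside every GENCODE 29 exon of the gene. Capitals mark the GC box GGGCGG, bound by Sp1-type factors, and the parts TTCAGCACC and GGACAGC of RE1, the site of REST, a repressor of neuronal genes, on either strand.
KCNT1, chr9:135701935-135702184, plus strand: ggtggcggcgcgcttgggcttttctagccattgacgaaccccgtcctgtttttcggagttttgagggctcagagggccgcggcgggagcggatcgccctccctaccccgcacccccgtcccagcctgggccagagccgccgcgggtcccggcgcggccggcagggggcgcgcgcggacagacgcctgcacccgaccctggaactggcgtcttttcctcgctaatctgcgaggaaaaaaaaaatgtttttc
KCNH6, chr17:63523108-63523333, plus strand: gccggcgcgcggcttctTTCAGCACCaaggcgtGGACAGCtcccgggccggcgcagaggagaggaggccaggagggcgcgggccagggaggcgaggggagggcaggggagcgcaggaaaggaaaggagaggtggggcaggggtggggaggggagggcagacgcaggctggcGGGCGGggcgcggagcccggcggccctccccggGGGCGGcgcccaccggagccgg
KCNH1, chr1:211134181-211134398, minus strand: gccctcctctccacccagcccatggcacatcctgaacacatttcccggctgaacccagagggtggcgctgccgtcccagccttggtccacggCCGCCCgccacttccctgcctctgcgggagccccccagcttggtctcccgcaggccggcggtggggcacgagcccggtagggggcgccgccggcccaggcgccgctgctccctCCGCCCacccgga
SCN9A, chr2:166376002-166376194, minus strand: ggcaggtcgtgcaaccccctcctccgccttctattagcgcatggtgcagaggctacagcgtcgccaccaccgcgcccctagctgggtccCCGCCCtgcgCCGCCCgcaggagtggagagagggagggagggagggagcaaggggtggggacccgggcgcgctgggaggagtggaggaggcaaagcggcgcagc

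Promoter entries were matched for 77 of the 109 channel genes, each with 250 bases before the start. GGGCGG was found on either strand in 46 of them, or 59.7%, against 42.3% of all 27305 promoters of the same length. The part TTCAGCACC was found in 2 of the 77, KCNH6 and KCNK3, against 0.3% of all promoters, and GGACAGC in 8 of the 77, or 10.4%, against 4.78%. KCNH6 and KCNK3 also hold GGACAGC, and 12 of all 27305 promoters hold both parts. In KCNH6 both parts read along the same strand and in KCNK3 along opposite strands. The CRE TGACGTCA was found in 1 of the 77 against 1.77% of all promoters, the CCAAT box CCAAT in 24 against 33%, and the TATA box TATAAA in 4 against 11.1%. The E-box CACGTG was found in 5 against 6.49%, the AP-1 site TGANTCA in 4 against 6.6%, and the p53 half-site in 6 against 5.53%. Matches of different motifs that overlap were counted for each motif. REST itself was between 35.3 and 48.8 normalized CPM in the 16 libraries and was called in none of the 4 comparisons.

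The genotype comparison asked how the libraries labelled TRPM2 KO differed from Scr. Without treatment, 3 of 64 tested channel genes were higher and 3 lower, that is, 9.38%, against 4.84% of all 14364 tested genes, of which 2.3% were higher and 2.54% lower. The groups did not overlap for 4 higher and 6 lower channel genes, against 4.29% and 5% of all genes, or 9.29% in either direction. KCNJ3, KCNJ12 and SCN9A were higher, and KCNH1, SCN2A and SCN3A lower, so that 3 of 40 tested potassium and 3 of 9 tested sodium channel genes were called. Without KO11 replicate 2, 3 channel genes were called, a count whose share over all genes is not given here. Of 15 tested calcium channel genes, limma and edgeR called 0, with 3 and 2 at an unadjusted p under 0.05, and DESeq2 called 1, CACNA2D1, which was lower. Of all 14364 genes tested by limma, 2051 had an unadjusted p under 0.05. The median log2 fold change was -0.02 for the tested channel genes and -0.01 for all genes.

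KCNJ3, which encodes the GIRK1 pore of G protein-gated potassium channels, was higher in the libraries labelled TRPM2 KO in both treatments. Without treatment it had 6.94 and 8.43 in KO11 and 6.97 and 12.8 in KO28 (normalized CPM), against 3.94 and 3.97 in Scr13 and 3.07 and 4.26 in Scr16. After doxorubicin it had 10.5 and 8.31 in KO11 and 12.4 and 8.13 in KO28, against 4.45 and 2.90 in Scr13 and 2.09 and 2.66 in Scr16. All libraries labelled TRPM2 KO lay above all Scr ones in both treatments. The test gave log2 fold change 0.99, SE 0.22, adjusted p = 0.00739 without treatment and log2 fold change 1.44, SE 0.24, adjusted p = 0.000258 after doxorubicin. KCNJ3 (ENSG00000162989) lies on chromosome 2 from 154698299 to 154858352 on the plus strand.

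KCNJ12, an inward rectifier of the Kir2 family, followed the same order. It had 4.85 and 6.32 in KO11 and 6.17 and 5.03 in KO28 (normalized CPM) in the untreated libraries labelled TRPM2 KO, against 1.97 and 2.82 in Scr13 and 2.58 and 1.93 in Scr16. After doxorubicin it had 11.1 and 8.12 in KO11 and 7.06 and 8.67 in KO28, against 7.25 and 2.21 in Scr13 and 2.28 and 2.21 in Scr16. The untreated groups did not overlap, and after doxorubicin Scr13 replicate 1, at 7.25, reached the libraries labelled TRPM2 KO. For KCNJ12 limma gave log2 fold change 0.99, SE 0.22, adjusted p = 0.00790 and log2 fold change 1.24, SE 0.28, adjusted p = 0.00621. KCNJ12 has a near-identical copy, KCNJ18, which was not analysed here, so its reads may be split or shared and its values are uncertain.

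SCN9A was the sodium channel pore that was higher in the libraries labelled TRPM2 KO. Without treatment it had 69.9 and 70.6 in KO11 and 48.3 and 46 in KO28 (normalized CPM), against 49.2 and 41.2 in Scr13 and 38.5 and 36.4 in Scr16. KO11 lay above all Scr libraries, while KO28 overlapped Scr13 replicate 1. After doxorubicin it had 91.1 and 77.3 in KO11 and 77.1 and 64.7 in KO28, against 42.9 and 38.1 in Scr13 and 44.6 and 32.3 in Scr16, with no overlap. The test gave log2 fold change 0.48, SE 0.13, adjusted p = 0.0447 without treatment and log2 fold change 0.96, SE 0.12, adjusted p = 6.23e-06 after doxorubicin. The untreated call was lost without either KO11 library, Scr13 replicate 2 or either Scr16 library (adjusted p up to 0.175), and without clone KO11 the untreated log2 fold change was 0.20. The treated call was kept without any library or clone. SCN9A (ENSG00000169432) lies on chromosome 2 from 166195185 to 166376001 on the minus strand, in a cluster with SCN2A and SCN3A.

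KCNH1, the Eag1 pore, was lower in the libraries labelled TRPM2 KO in both treatments. Without treatment it had 23.2 and 21.8 in KO11 and 29 and 16.5 in KO28 (normalized CPM), against 49.2 and 29.6 in Scr13 and 35.2 and 48.3 in Scr16. After doxorubicin it had 20.1 and 15.7 in KO11 and 18.1 and 19.6 in KO28, against 29.5 and 30.7 in Scr13 and 41.8 and 48.2 in Scr16. No library of the lower group reached the other group in either treatment. The test gave log2 fold change -0.81, SE 0.17, adjusted p = 0.00436 and log2 fold change -0.97, SE 0.15, adjusted p = 0.000159. KCNH1 (ENSG00000143473) lies on chromosome 1 from 210676823 to 211134180 on the minus strand, and part of its exons lies opposite AC096636.1, at a mean of 1.47 normalized CPM.

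SCN2A and SCN3A, of the same cluster as SCN9A on chromosome 2, were lower without treatment. SCN2A had 32.5 and 32.7 in KO11 and 36.6 and 26 in KO28 (normalized CPM), against 45.7 and 40.3 in Scr13 and 49 and 38.3 in Scr16. SCN3A had 48.7 ± 4.12 normalized CPM, against 63.5 ± 7.16 (SD, n = 4). The groups did not overlap for either gene. Limma gave log2 fold change -0.43, SE 0.12, adjusted p = 0.0384 for SCN2A and log2 fold change -0.37, SE 0.10, adjusted p = 0.0325 for SCN3A. Both calls rested on single libraries. That of SCN2A was lost without either KO11 library, KO28 replicate 2, either Scr13 library or Scr16 replicate 1 (adjusted p up to 0.145). That of SCN3A was lost without KO11 replicate 2, KO28 replicate 1 or either Scr13 library (up to 0.146). After doxorubicin their log2 fold changes were -0.01 and -0.13 and neither was called.

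**Figure D5:**
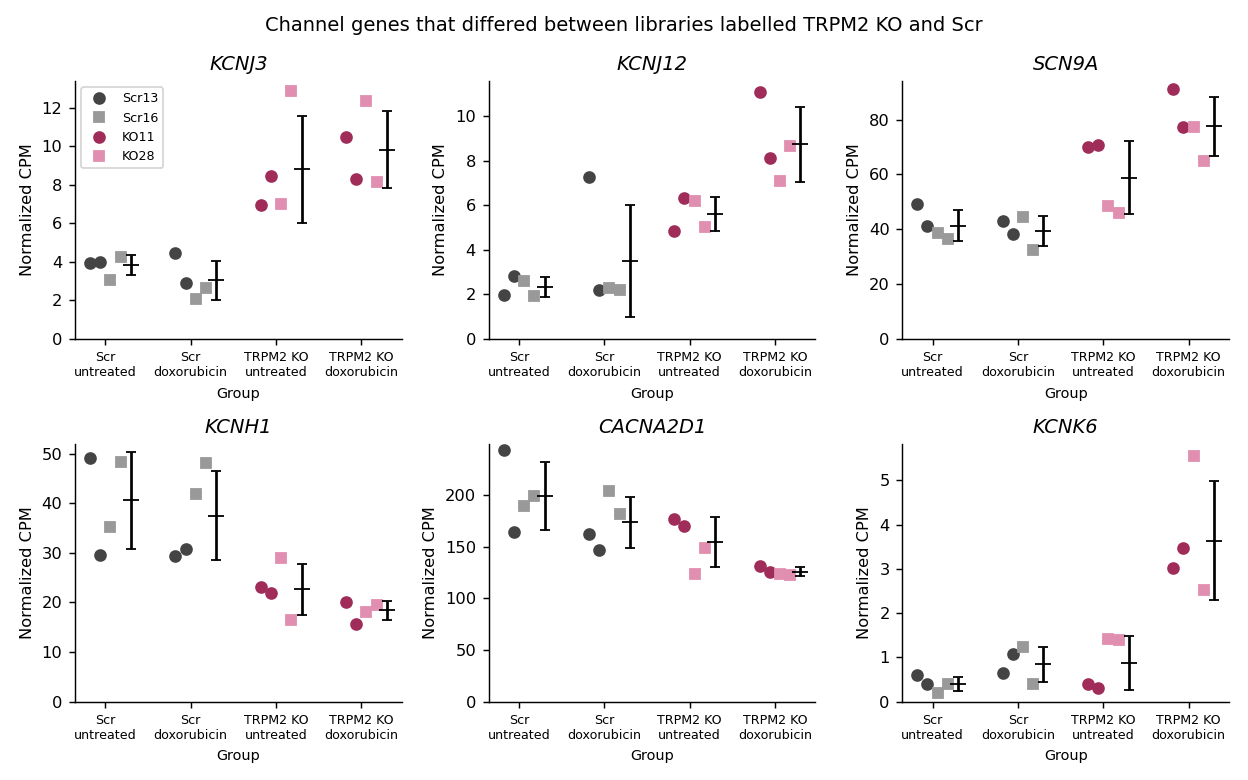
Level of 6 channel genes that differed between libraries labelled TRPM2 KO and Scr in 1 or both treatments, in normalized CPM on axes from 0 (points are libraries, marked by clone, and bars the mean ± SD of 4). KCNJ3 lies between 6.94 and 12.8 in the libraries labelled TRPM2 KO and between 2.09 and 4.45 in Scr.

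After doxorubicin, 8 of 69 tested channel genes were higher in the libraries labelled TRPM2 KO and 5 lower, that is, 18.8%, against 8.69% of all 14572 tested genes, of which 4.52% were higher and 4.17% lower. The groups did not overlap for 7 higher and 6 lower channel genes, against 6.76% and 6.42% of all genes, or 13.2% in either direction. Besides KCNJ3, KCNJ12 and SCN9A, the higher ones were KCNK6, SCN4B, KCNT1, CACNG8 and SCN3B. Besides KCNH1, the lower ones were KCNC4, CACNA1C, CACNA2D1 and CACNG4, so that 3 of the 5 were calcium channel genes. By class, 6 of 43 tested potassium, 4 of 17 calcium and 3 of 9 sodium channel genes were called. The median log2 fold change was -0.01 for the tested channel genes and 0.01 for all genes, and by class it was 0.03 for potassium, -0.23 for calcium and 0.33 for sodium channel genes.

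KCNK6 and SCN4B were higher in the treated libraries labelled TRPM2 KO than in all treated Scr libraries. KCNK6 had 3.01 and 3.46 in KO11 and 5.56 and 2.51 in KO28 (normalized CPM), against 0.653 and 1.07 in Scr13 and 1.24 and 0.390 in Scr16. For KCNK6 limma gave log2 fold change 1.32, SE 0.29, adjusted p = 0.00433. SCN4B, whose values are given above, had 35.1 ± 4.76 against 18.3 ± 3.54 normalized CPM (SD, n = 4) and log2 fold change 0.91, SE 0.15, adjusted p = 0.000181. KCNT1 had 152 ± 11.4 against 106 ± 28 (SD, n = 4, log2 fold change 0.56, SE 0.13, adjusted p = 0.00904), a call that DESeq2 on the recovered reads did not make (adjusted p = 0.103). The KCNT1 call was also lost without clone KO11, KO28 or Scr16, and with no filter on low values. The smaller rises of SCN3B (0.33) and CACNG8 (0.56), a gamma subunit of AMPA receptors, rested on single libraries. SCN3B was no longer called without KO11 replicate 1, KO28 replicate 2 or Scr16 replicate 2 (adjusted p up to 0.0837), and CACNG8 without either KO11 or Scr16 library, KO28 replicate 1 or Scr13 replicate 1 (up to 0.146).

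Of the lower genes, CACNA2D1 had 132 and 125 in KO11 and 124 and 123 in KO28 (normalized CPM) in the treated libraries labelled TRPM2 KO, against 163 and 147 in Scr13 and 204 and 181 in Scr16. The groups did not overlap and the libraries labelled TRPM2 KO lay close together (log2 fold change -0.45, SE 0.09, adjusted p = 0.00158). CACNG4 had 644 ± 47.8 against 827 ± 83.8 (SD, n = 4), also with no overlap (log2 fold change -0.36, SE 0.08, adjusted p = 0.00672). CACNA1C, an L-type pore, and KCNC4 had log2 fold changes of -0.60 and -0.70, and their groups did not overlap. For CACNA1C the groups nearly touched, with 20.93 normalized CPM in KO28 replicate 1 and 20.95 in Scr13 replicate 2. The call of CACNA1C was lost without KO11 replicate 2, KO28 replicate 2 or either Scr16 library (adjusted p up to 0.0811), and that of KCNC4 without KO11 replicate 2, KO28 replicate 2, Scr13 replicate 2 or Scr16 replicate 1 (up to 0.104). KCNC4 was already lower without treatment, with 5.45 and 5.30 in KO11 and 6.17 and 5.76 in KO28 against 9.72 and 10.5 in Scr13 and 6.81 and 10.3 in Scr16 (normalized CPM) and no overlap, where limma gave an adjusted p of 0.0741 and DESeq2 on the recovered reads called it lower.

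Among the genotype comparisons, the calls of KCNJ3, SCN9A, SCN4B, KCNH1 and CACNA2D1 after doxorubicin were kept in all 21 alternatives, each clone left out included, and 0 of the 6 untreated calls were. Without clone Scr13 only KCNH1, and without clone Scr16 only SCN3A, was called among the untreated libraries. Of the 11 responses called in Scr, 3 (CACNG7, KCNT1 and SCN4B) were kept in all 18 alternatives, and of the 20 in the clones labelled TRPM2 KO, 6 were (CACNA1G, CACNA2D2, KCNH6, KCNT1, SCN2A and SCN4B). The call of the CACNG4 fall was lost without either clone labelled TRPM2 KO, and that of the KCNK6 rise without KO11.

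Whether the doxorubicin response differed between genotypes was tested as an interaction over all 16 libraries. None of 71 tested channel genes was called by limma, where 0.0261% of all 15325 tested genes were, 0.0131% in each direction. By limma, 6 of the 71 channel genes had an unadjusted p under 0.05, as had 1274 of all 15325 tested genes. edgeR and DESeq2 on the recovered reads also called 0, with 4 and 5 channel genes under 0.05 unadjusted, and their shares over all genes are not given here. The lowest adjusted p belonged to SCN9A, SCN2A and KCNK6, which were named after their values were seen. The response of SCN9A was larger in the clones labelled TRPM2 KO by 0.48 on the log2 scale, with a 95% interval from 0.17 to 0.79 (limma adjusted p = 0.321). That of SCN2A was larger by 0.42, from 0.07 to 0.76, and that of KCNK6 by 0.95, from 0.15 to 1.75 (adjusted p = 0.493 and 0.504 from limma). For SCN4B the difference was 0.49, from -0.04 to 1.03. Calls past the threshold in 1 genotype and not in the other are thus not shown to differ between them.

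Of the 70 channel genes tested in at least 1 of these 4 comparisons, 42 were called in none by limma. Of these 42, DESeq2 on the recovered reads called 3, which are named here for that reason after their values were seen. They were KCNH5, a voltage-gated pore, lower in the untreated libraries labelled TRPM2 KO (DESeq2 log2 fold change -1.80, adjusted p = 0.0228, limma adjusted p = 0.0574), KCNH8, of the same family, higher after doxorubicin in the genotype comparison and in the response of those clones, and KCNQ1, a voltage-gated pore, higher with doxorubicin in Scr, which edgeR also called. Among the 42 was also CACNB3, with log2 fold changes of 0.13, 0.12, 0.22 and 0.21 in the comparisons of genotype without treatment, genotype after doxorubicin, treatment in Scr and treatment in the clones labelled TRPM2 KO. In the same order, KCNJ8 had 0.13, 0.29, -0.26 and -0.10, and KCNMB4 0.00073, 0.05, 0.16 and 0.22. A p that misses the threshold does not show that the levels were equal.

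Summed over the genes of a class, the levels moved as follows, with no test. Potassium channel genes came to 1204 ± 106 in untreated Scr and 1411 ± 164 in treated Scr, and these overlapped. In the clones labelled TRPM2 KO they came to 1245 ± 125 and 1586 ± 59.8, which did not (summed normalized CPM, SD, n = 4). KCNH2 made up the largest share of these sums. Sodium channel genes came to 361 ± 19.5 and 403 ± 28.6 in Scr and 361 ± 8.15 and 481 ± 38 in the clones labelled TRPM2 KO. Calcium channel genes came to 1646 ± 63.3 and 1758 ± 78.4 in Scr and 1481 ± 66.3 and 1490 ± 80.8, and every Scr library was above every library labelled TRPM2 KO of the same treatment. CACNG4 had the largest share of the calcium sums, with 906 ± 72.7 and 827 ± 83.8 normalized CPM in Scr and 800.3 ± 52.6 and 644 ± 47.8 in the clones labelled TRPM2 KO (SD, n = 4).

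Genes outside the rule that serve these channels were looked at as lists from general knowledge. Of 26 partners, 25 were in the tables, and of 18 tested without treatment 3 were higher and 3 lower in the libraries labelled TRPM2 KO, where 4.84% of all tested genes were called. DPP6, an auxiliary of A-type potassium channels, was higher in both treatments, with log2 fold change 0.83, SE 0.11, adjusted p = 6.12e-05 and log2 fold change 0.82, SE 0.13, adjusted p = 0.000112. Its relative DPP10 and NEDD4L, a ubiquitin ligase of sodium channels, were higher without treatment, by 0.82 and 0.43 on the log2 scale. FGF14, which binds sodium channel pores, had log2 fold changes of -0.57 and -0.59, and STAC, a partner of L-type channels, -0.37 and -0.54, all 4 called. After doxorubicin 1 of 19 tested partners was higher and 2 were lower, against 8.69% of all tested genes called. In the Scr clones 1 of 18 rose with doxorubicin and 1 fell, namely SPTBN4, a spectrin of the axon (0.38), and AKAP5, a kinase anchor (-0.66), against 12.3% of all tested genes called. In the clones labelled TRPM2 KO 1 of 19 rose, SPTBN4 (0.38), and 1 fell, ANK2, an ankyrin (-0.37), against 19.6%.

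Of 26 related channels and ion pumps, 22 were in the tables and 17 were tested in each of the 4 comparisons. With doxorubicin 3 of 17 were called in Scr and 2 of 17 in the clones labelled TRPM2 KO, all higher, against 12.3% and 19.6% of all tested genes. HCN2, a pacemaker channel, rose with doxorubicin in both genotypes, from 44.7 ± 9.97 to 69.1 ± 12.8 normalized CPM in Scr and from 40.4 ± 2.92 to 64.6 ± 4.52 in the clones labelled TRPM2 KO (SD, n = 4). Its tests gave log2 fold change 0.63, SE 0.10, adjusted p = 0.000346 and log2 fold change 0.66, SE 0.10, adjusted p = 1.20e-05. ATP1B2, a beta subunit of the sodium pump, rose by 0.62 on the log2 scale in the Scr clones. Between genotypes 0 of 17 were called by limma without treatment, with 0 at an unadjusted p under 0.05. Of all 14364 genes tested there, 4.84% were called and 2051 had an unadjusted p under 0.05. After doxorubicin, where 8.69% were, ATP1B1, another beta subunit, was higher (0.30) and UNC80, a subunit of the sodium leak channel, lower (-0.33).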

How the data were processed

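The paper's authors sequenced poly(A) RNA from SH-SY5Y clones with a directional kit. The submitters' processing notes name GRCh38, bcl2fastq, HISAT2 2.1.0, HTSeq and edgeR. The deposited values are a signal scaled by the authors, CPM normalized with edgeR factors between 0.974 and 1.03. All values were whole reads times 1 step per library (100%, tolerance 0.01), so reads were recovered. Untreated and treated libraries came in separate tables. The mean log2 factor of the untreated table was 0.0295 above that of the treated one, against 0.0293 for TMM factors computed over all 16 libraries and 0 by construction for factors computed within each table, so levels were compared across the tables. The deposited p-value, q-value and log2 fold change columns hold the authors' own comparisons and were not used. Groups came from the labels. Genes were matched to GENCODE 29.

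Main tests used limma 3.58.1 (R 4.3.3) with a mean trend on log2(normalized CPM + 1), for genes with at least 1 in at least 4 libraries of the comparison, and Benjamini-Hochberg adjustment over all tested genes at 0.05, so fold changes of low genes are understated. Responses and the interaction had clone as a term. Alternatives were edgeR 4.0.16 and DESeq2 1.42.0 on recovered reads, a pseudocount of 0.25, no filter, a mean of at least 5, library size alone, clone as a random block, clone means, no clone term, a replicate block, and leaving out each library or clone. Scripts were checked on simulated data. The rule for named genes took, in each comparison, the 8 largest rises and 8 largest falls called, the 3 highest members per kb of each class and the highest of each role, with values per library for the 5 largest changes. The members and lists were chosen with earlier results of these data known. The values of a few named genes are not reported here.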

Additional observations from a re-analysis of the deposited data

Results flagged for a closer look

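For the channel genes named above and a few others, the highest and lowest library of each group of 4 was set against the other 3. Of 152 such groups, 12 had a library whose gap to the nearest other was, as a share of the whole range, over Dixon's 95% critical value for 4 samples, and chance gives about 1 in 20. The widest gap was KCNJ12 in treated Scr13 replicate 1, at 7.25 normalized CPM, against 2.21 to 2.28 in the other treated Scr libraries. Untreated KO28 replicate 2 stood apart for 5 genes. It had 17.5 normalized CPM for CACNA1C, against 14.8 to 15.2 in the other untreated libraries labelled TRPM2 KO, 175 for CACNA2D2, against 146 to 151, 8.90 for KCND1, against 4.83 to 5.30, 2.26 for KCNH5, against 0.482 to 0.738, and 28.2 for SCN8A, against 35.9 to 36.5. Untreated Scr16 replicate 2 had 8.58 for KCNH8, against 13.2 to 13.9 in the other untreated Scr libraries. Untreated KO28 replicate 1 had 42.6 for SCN3A, against 50.3 to 51.1. Treated KO11 replicate 2 had 127 for CACNG7, against 158 to 162, 25.4 for KCNMB4, against 23.1 to 23.4, and 30.3 for SCN8A, against 41.0 to 42.1. Treated KO28 replicate 2 had 19.6 for CACNG8, against 30.6 to 32.4.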

How the results depend on the processing

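Counts are channel genes called, in the order genotype without treatment (6), genotype after doxorubicin (13), response in Scr (11) and response in the clones labelled TRPM2 KO (20). With no filter on low values the first 3 were 0, 7 and 7. Clone means gave 3 in the first. Without clone Scr13 the first was 1 and the third 4, and without clone Scr16 the first was 1 and the second 8. Without clone KO11 the second was 5 and the fourth 7, and without clone KO28 the second was 7. With 1 library left out at a time they ranged from 3 to 6 (3 without untreated KO11 replicate 2), 10 to 15, 8 to 12 and 16 to 24. The interaction count was 0 in all 28 alternatives. DESeq2 gave 9, 14, 14 and 22, and edgeR 6, 13, 12 and 20. The replicate number as a replicate block gave 6, 14, 13, 20 and an interaction count of 0, but the same number in untreated and treated libraries of a clone did not pair them (deviations correlated between -0.0846 and 0.160, above 0.1 in 1 of 4 clones). Of 953 values of single genes under alternatives, 953 kept their direction and 160 were no longer past the threshold. The cause of these changes was not tested. The share of all genes called under each setting is not given here. The counts above thus do not show whether a change was particular to channel genes. Depth limits low genes such as KCNK6, TRPM2 and the 42 channel genes with a mean under 1 normalized CPM. With 2 clones per genotype, a genotype effect cannot be told apart from clone differences.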
